A study of Apis mellifera with 5 samples.

Results

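The 4 unigenes that the study assigns to AKT (TC15907), TOR (TC20981), TSC2 (TC14039) and ribosomal protein S6 kinase (S6K, TC15949) were followed in the hypopharyngeal glands (HGs) of worker honey bees (Apis mellifera carnica Pollmann). They were taken by their identifiers from the 20522 unigenes that had a read in any library, and all 4 had reads in all 5 libraries. The bees were full sisters from 1 colony with an artificially inseminated queen, untreated, and 3, 6, 9, 12 or 16 days old, counted from emergence. HGs of 30 bees were pooled for 1 RNA-seq library per age, so each test on reads compares 2 libraries and not 2 ages, and no difference has a replicate check. The study set day 3 as its baseline.

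TOR is a protein kinase that senses nutrients and growth signals and promotes protein synthesis and cell growth. Insulin receptors act through PI3K on the kinase AKT, and AKT phosphorylates TSC2, which otherwise keeps TOR inactive by acting on the small GTPase Rheb. Active TOR, bound to its partner Raptor, phosphorylates S6K, and S6K phosphorylates the ribosomal protein S6. Much of this order was worked out in Drosophila and mammals. These are steps of protein activity, and only RNA was measured here. In honey bees, TOR signalling is known for its part in the nutrition-dependent development of queens and workers.

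All 4 unigenes were lowest on day 12, and all 4 were called lower there than on day 3 (FDR not above 0.001, log2 ratio of RPKM 1 or more in size), as were 12.5% of all unigenes tested and 27.5% of those with at least 100 reads. Under TMM, a scaling that allows for a few very abundant unigenes, the calls of TOR and S6K were lost. AKT stood at 22.7% of its day 3 level, TSC2 at 31.7%, S6K at 34.3% and TOR at 36.5%, and the differences among the 4 on that day did not pass their test. With TMM these levels came to 34.5%, 48.1%, 52.0% and 55.4% of day 3. On day 16 the levels of TOR and TSC2 stood at 71.5% and 71.3% of day 3, while AKT and S6K stood at 41.8% and 46.8%. With TMM, TOR and TSC2 came to 98.9% and 98.5% of day 3 on day 16, and AKT and S6K to 57.8% and 64.6%. The differences of S6K from TOR and from TSC2 on that day did not pass their test. Levels are given as RPKM, unique reads set against the length of the unigene and the total of unique reads in the library, and each interval beside them is a 95% exact Poisson interval that covers counting error only.

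In units of 1000, the libraries held between 1208 (day 9) and 1816 (day 16) unique reads. By the study's account, RNA integrity was lowest in the RNA of days 12 and 16. The share of reads that matched several positions, which are not counted here, was highest on days 9 and 12. The part of either in the values of the members was not tested. The royal jelly protein unigenes TC24109 (mrjp2) and TC13222 (mrjp7), which mark the secreting gland, were abundant at every age, between 15939 and 81166 RPKM for mrjp2. The mrjp2 unigene alone took 2.53% of the unique reads at day 3, 5.39% at day 6, 12.4% at day 9, 12.9% at day 12 and 6.00% at day 16. The median unigene with at least 10 reads over the 5 libraries (15538 unigenes) lay below its day 3 RPKM by a log2 ratio of -0.20 at day 6, -0.47 at day 9, -0.65 at day 12 and -0.50 at day 16. Scaling the libraries by TMM, a trimmed mean over unigenes, shifted that median up by 0.15, 0.39, 0.59 and 0.46. RPKM levels and their intervals below are scaled by the total of unique reads, and TMM values are given beside them at several points.

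AKT, the kinase that passes the insulin signal on towards TOR, had 561 unique reads at day 3, 413 at day 6, 192 at day 9, 101 at day 12 and 251 at day 16. This corresponded to 96.3 RPKM (88.5 to 105) at day 3, 79.3 (71.8 to 87.3) at day 6, 46.4 (40.0 to 53.4) at day 9, 21.9 (17.8 to 26.6) at day 12 and 40.3 (35.5 to 45.6) at day 16. The level was lower at each step up to day 12, and under this scaling the intervals of neighbouring ages did not overlap over that span. The step to day 6 was not firm. Under TMM, day 6 stood at 91.2% of day 3, a log2 ratio of -0.13 (FDR 0.612, test of Audic and Claverie). AKT was the most abundant of the 4 per length: 90.3% of the unigenes with a read lay below it on day 3, and 82.7% on day 16.

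TOR, the kinase at the centre of the pathway, had 166 unique reads at day 3, 97 at day 6, 72 at day 9, 48 at day 12 and 127 at day 16. Its level was 13.3 RPKM (11.4 to 15.5) at day 3, 8.72 (7.07 to 10.6) at day 6, 8.14 (6.37 to 10.2) at day 9, 4.87 (3.59 to 6.46) at day 12 and 9.54 (7.96 to 11.4) at day 16. Days 6, 9 and 16 lay close together between the high day 3 and the low day 12. Under TMM they stood at 72.4%, 80.4% and 98.9% of day 3, so day 16 was then close to day 3. TOR was the longest of the 4 unigenes, with 7329 bases, and the lowest per length. Its reads covered 52.3% of that length at day 3, 38.8% at day 6, 30.8% at day 9, 22.9% at day 12 and 47.2% at day 16.

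TSC2, the inhibitor that AKT acts on, had 219 unique reads at day 3, 141 at day 6, 117 at day 9, 55 at day 12 and 167 at day 16. Per length this gave 25.0 RPKM (21.8 to 28.6) at day 3, 18.0 (15.2 to 21.3) at day 6, 18.8 (15.6 to 22.5) at day 9, 7.94 (5.98 to 10.3) at day 12 and 17.9 (15.3 to 20.8) at day 16. Days 6, 9 and 16 differed from each other by less than their intervals, and their intervals lay above that of day 12. The interval of day 3 lay above those of days 6 and 16 and overlapped that of day 9. Under TMM, days 6, 9 and 16 stood at 79.8%, 99.0% and 98.5% of day 3, so days 9 and 16 were then close to day 3. From day 6 to day 9 the log2 ratio of TSC2 was 0.06, where AKT had -0.77, a difference that was not tested.

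S6K, the kinase downstream of TOR, had the fewest reads, with 70 at day 3, 47 at day 6, 25 at day 9, 19 at day 12 and 35 at day 16. Its level was 27.6 RPKM (21.5 to 34.8) at day 3, 20.7 (15.2 to 27.5) at day 6, 13.8 (8.96 to 20.4) at day 9, 9.45 (5.69 to 14.8) at day 12 and 12.9 (8.98 to 17.9) at day 16. Neighbours in the order of its levels (days 3, 6, 9, 16 and 12, high to low) had overlapping intervals throughout. Under TMM, days 6, 9, 12 and 16 stood at 83.2%, 66.2%, 52.0% and 64.6% of day 3. With 196 reads over the 5 libraries, against 1518 for AKT, smaller differences of S6K were not detectable at this depth.

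**Figure D1:**
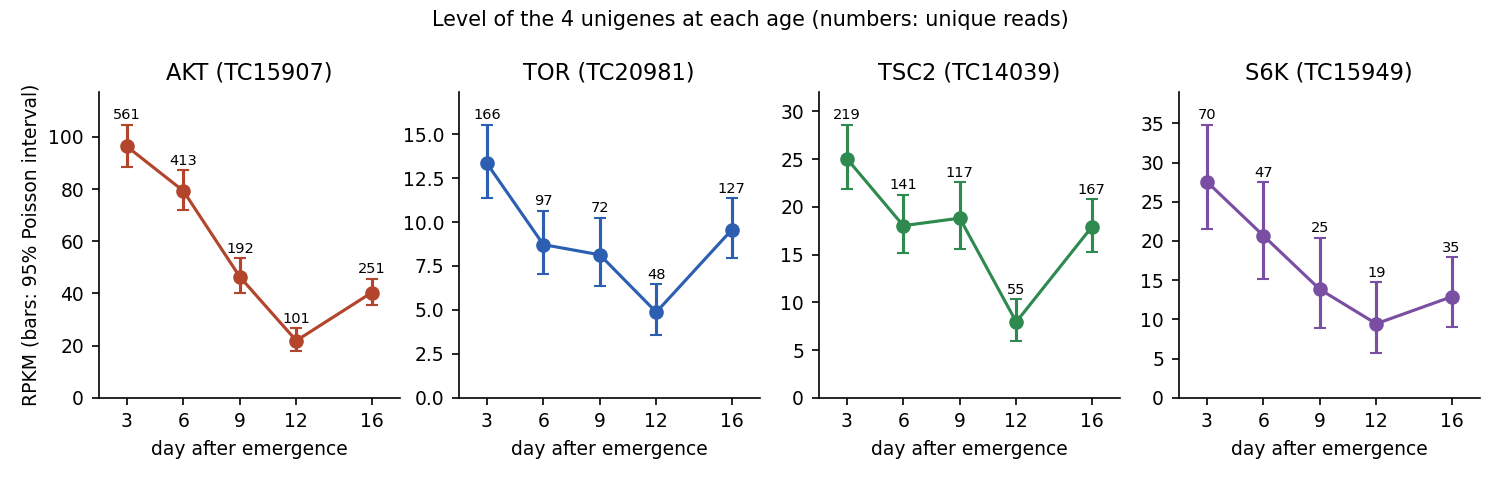
RPKM of AKT, TOR, TSC2 and S6K (1 panel each, axis from 0) against age (3, 6, 9, 12 or 16 days after emergence), with 95% exact Poisson intervals as bars and the number of unique reads above each point (1 library per age). Scaled by the total of unique reads, as here, all 4 are highest on day 3 and lowest on day 12, where AKT has 101 reads and S6K has 19.

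In the order of levels, AKT on day 16 lay between days 9 and 12, and the log2 ratio of day 16 to day 9 was -0.20 (95% interval -0.48 to 0.08), within counting error. For TOR, day 16 ranked second, and its log2 ratio to day 6, the next in the order, was 0.13 (-0.26 to 0.53). The ratio of day 9 to day 6 was -0.10 (-0.56 to 0.36) for TOR and 0.06 (-0.30 to 0.43) for TSC2. Day 16 against day 6 gave -0.01 (-0.35 to 0.32) for TSC2. The middle of the age series thus had no firm order for TOR, TSC2 or S6K.

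Each later age was tested against day 3 with the two-sided test of Audic and Claverie on the unique reads, adjusted over all unigenes with a read in either library. A unigene was called where the FDR did not exceed 0.001 and the log2 ratio was 1 or more in size. No member was called on day 6, when 0.289% of all unigenes tested were called lower. On day 9, AKT alone was called lower (6.31% of all unigenes tested), on day 12 all 4 were (12.5%), and on day 16 AKT and S6K were (9.9%). No member was called higher at any age, where 0.574% of all unigenes tested were at day 6, 1.27% at day 9, 1.8% at day 12 and 2.51% at day 16. Since calls need reads, the share among the 8038 unigenes with at least 100 reads over the 5 libraries is nearer to these 4, and it was 0.684% at day 6, 14.4% at day 9, 27.5% at day 12 and 21.8% at day 16. The study listed these unigenes among its differentially expressed genes on the same libraries, so their direction against day 3 is not independent evidence.

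On day 12 AKT had a log2 ratio to day 3 of -2.14 (95% interval -2.46 to -1.83, FDR 5.6e-55). TSC2 had -1.66 (-2.11 to -1.22, FDR 1.24e-15), S6K had -1.54 (-2.36 to -0.80, FDR 5.79e-05) and TOR had -1.45 (-1.95 to -0.98, FDR 4.9e-10). Relative to the median unigene these were -1.49, -1.01, -0.90 and -0.81. Among the unigenes with at least 100 reads, 5.23% had a lower day 12 ratio than AKT, 13.6% than TSC2, 16.3% than S6K and 18.7% than TOR. AKT thus lay nearer the low end of all unigenes of that depth than the other members did. Under TMM, AKT (-1.54) and TSC2 (-1.06) were still called, while TOR (-0.85) and S6K (-0.94) were not. That scaling called 4.28% of all unigenes lower and 3.64% higher on day 12, a more even split than the 12.5% and 1.8% under the total of unique reads.

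On day 9 AKT had a log2 ratio to day 3 of -1.06 (-1.30 to -0.82, FDR 1.88e-18), and under TMM it was -0.66 and not called (2.06% of all unigenes were). S6K lay at -0.99 (-1.71 to -0.32, FDR 0.0140), just short of the minimum ratio and not past the FDR. TOR had -0.71 (-1.13 to -0.31, FDR 0.00271) and TSC2 had -0.41 (-0.75 to -0.08, FDR 0.0571). TSC2 was the only one of the 4 above the median unigene of -0.47 on that day. Scaled by all mapped reads, repeated matches included, all 4 were called lower on day 9, where 24.2% of all unigenes were.

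On day 16 AKT had a log2 ratio of -1.26 to day 3 (-1.48 to -1.04, FDR 2.67e-31) and S6K had -1.10 (-1.73 to -0.49, FDR 0.000958). TOR had -0.48 (-0.83 to -0.14, FDR 0.0184) and TSC2 had -0.49 (-0.79 to -0.19, FDR 0.00475), and these values were close to the median unigene of -0.50. Under TMM, TOR and TSC2 both stood at -0.02, and AKT (-0.79) and S6K (-0.63) were no longer called (3.68% of all unigenes were). On day 6 the 4 ratios ran from -0.61 for TOR to -0.28 for AKT, and TMM called 0.114% of all unigenes lower. At an FDR of 0.05 with no minimum ratio, 3 members passed at day 6 (6.77% of all unigenes did), 3 at day 9 (16.8%), 4 at day 12 (25.3%) and 4 at day 16 (22.9%).

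**Figure D2:**
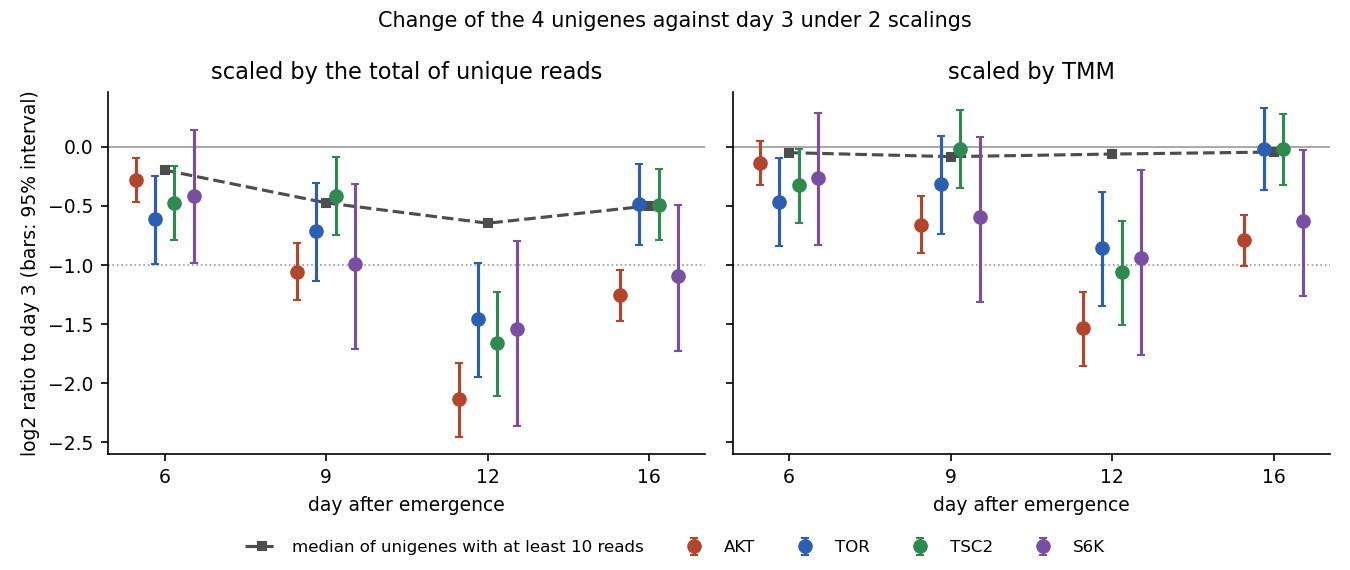
Log2 ratio of RPKM to day 3 for AKT, TOR, TSC2 and S6K on days 6, 9, 12 and 16, scaled by the total of unique reads (left) and by TMM (right), with 95% intervals as bars. The dashed line joins the medians of 15538 unigenes and the dotted line marks the minimum ratio of a call. On day 12 all 4 lie below the median under both scalings, while on day 16 TOR and TSC2 lie on it.

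The later ages were also compared with each other. The study's TOR list does not give these contrasts, but they share libraries with those against day 3. The same low day 12 counts enter the falls to that day and the rises after it. The study also drew its differentially expressed genes from pairwise comparisons of all 5 libraries. These contrasts are therefore not independent evidence either. AKT had 101 reads on day 12, against 413 on day 6, a log2 ratio of -1.86 (-2.18 to -1.54, FDR 5.27e-36), and it was also called under TMM (-1.40). TSC2 had 55 reads on day 12, against 141 on day 6, with a ratio of -1.18 (-1.66 to -0.72, FDR 1.15e-06), which TMM brought to -0.73 and below the minimum ratio. TOR (-0.84) and S6K (-1.13) did not pass. So 2 of 4 members were called lower on day 12 than on day 6, where 6.41% of all unigenes tested were, 14.7% of those with at least 100 reads and 1.85% under TMM. Higher calls came to 1.19%. At an FDR of 0.05 with no minimum ratio all 4 passed, as did 18% of all unigenes.

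Both TSC2 and AKT fell between days 9 and 12. TSC2 had 55 reads on day 12, against 117 on day 9, a log2 ratio of -1.24 (-1.73 to -0.77, FDR 2.04e-06), and was called under TMM as well (-1.04). AKT had 101 reads on day 12, against 192 on day 9, with a ratio of -1.08 (-1.44 to -0.73, FDR 2.27e-08), and was not called under TMM (-0.88). TOR (-0.74, FDR 0.0574) and S6K (-0.55, FDR 0.644) did not pass. In this comparison 1.44% of all unigenes tested were called lower, 3.3% of those with at least 100 reads and 0.642% under TMM, while 0.788% were called higher. The share at an FDR of 0.05 with no minimum ratio was 7.08%.

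From day 12 to day 16, TSC2 rose, with 167 reads on day 16, against 55 on day 12, a log2 ratio of 1.17 (0.72 to 1.64, FDR 1.64e-06). It was called under TMM too (1.03). AKT (0.88, 0.54 to 1.23, FDR 3.27e-06) and TOR (0.97, 0.48 to 1.48, FDR 0.000874) passed the FDR but not the minimum ratio, and S6K had 0.45 (-0.40 to 1.34). All 4 ratios lay above 0, and 1 of 4 was called higher, where 2.33% of all unigenes tested were, 5.41% of those with at least 100 reads, 1.58% under TMM and 7.52% at an FDR of 0.05 with no minimum ratio. Lower calls came to 0.748%. No member was called between days 6 and 9, where 0.803% were called lower and 0.378% higher. AKT had -0.77 in that comparison (FDR 2.19e-08), short of the minimum ratio. Day 16 against day 6 called no member either (3.67% of all unigenes lower and 1.92% higher), nor did day 16 against day 9 (1.45% lower and 1.54% higher). On day 16 against day 6, AKT came just short of the minimum ratio, at -0.98 (-1.21 to -0.75, FDR 3.13e-16), and had -0.66 under TMM.

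These calls rest on counting error. With an assumed coefficient of variation of 0.2 between libraries (edgeR's exact test), only AKT on day 12 against day 3 kept its call (FDR 0.000147), and 1.82% of all unigenes were then called lower. TSC2, TOR and S6K then had an FDR of 0.00783, 0.0266 and 0.0530 on day 12 against day 3, and no comparison between later ages kept one.

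The ratio of 2 members within a library does not depend on how libraries are scaled. Its change since day 3 passed a test for AKT against TSC2 on days 9 and 16, and for AKT against TOR on day 16 alone. AKT had 7.22 times the RPKM of TOR at day 3 (95% interval 6.06 to 8.64), 9.10 times at day 6 (7.28 to 11.5), 5.70 times at day 9 (4.32 to 7.58), 4.50 times at day 12 (3.16 to 6.48) and 4.22 times at day 16 (3.40 to 5.27). Against TSC2 the same ratio was 3.85 at day 3, 4.40 at day 6, 2.46 at day 9, 2.76 at day 12 and 2.26 at day 16. AKT was the highest of the 4 per length at each age.

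The change since day 3 was compared between members in 24 tests (6 pairs by 4 later ages, two-sided Fisher's exact test, with Benjamini-Hochberg adjustment over the 24). These tests cover counting error only. The assumed coefficient of variation between libraries was not applied to them. The change of AKT lay below that of TSC2 by a log2 difference of -0.64 on day 9 (-1.06 to -0.23, adjusted p = 0.0176, Fisher's exact test) and -0.77 on day 16 (-1.14 to -0.40, adjusted p = 0.000785, Fisher's exact test). It lay below that of TOR on day 16 by -0.77 (-1.18 to -0.36, adjusted p = 0.00216, Fisher's exact test). On day 12 the difference of AKT from TOR was -0.68 (-1.26 to -0.09), with an adjusted p of 0.126 in Fisher's exact test. The other pairs did not pass, and their intervals were wide where S6K was one of the 2: on day 12, AKT against S6K gave -0.59 (-1.41 to 0.29).

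TSC2 and TOR, inhibitor and target, kept a ratio between 1.63 (day 12, 1.09 to 2.45) and 2.31 (day 9, 1.71 to 3.15), and the differences of their changes since day 3 had intervals that included 0 at all 4 later ages. On day 16 that log2 difference was -0.0047 with an interval of -0.46 to 0.45. TSC2 and S6K could not be ordered in any library, with ratios between 0.841 (day 12) and 1.39 (day 16) and intervals that all included 1. S6K was 2.07 times as high as TOR on day 3 (1.54 to 2.75) and 1.35 times on day 16, where the interval of 0.901 to 1.98 included 1.

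**Figure D3:**
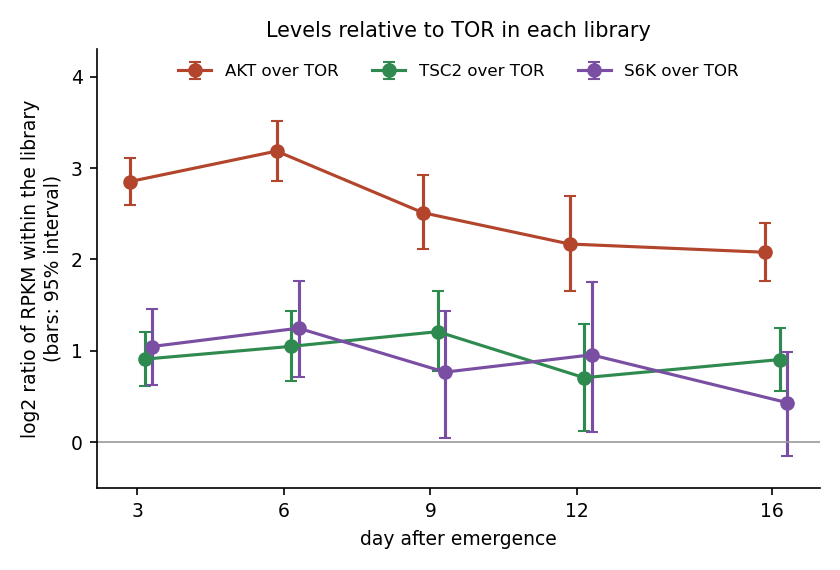
Log2 ratio of the RPKM of AKT, TSC2 and S6K to that of TOR within each library, by day after emergence, with 95% intervals as bars. AKT stands at 9.10 times TOR on day 6, 5.70 times on day 9 and 4.22 times on day 16, while TSC2 stays between 1.63 and 2.31 times.

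The study's TOR list holds 6 further unigenes, which give the pathway around these 4. With them, 0 of 10 were called lower than at day 3 at day 6, 2 at day 9, 9 at day 12 and 3 at day 16, and none was called higher. The shares of all unigenes tested were 0.289%, 6.31%, 12.5% and 9.9%, and 27.5% of those with at least 100 reads on day 12. Under TMM the counts were 0, 0, 2 and 0, the 2 being AKT and TSC2, against 0.114%, 2.06%, 4.28% and 3.68% of all unigenes. The median log2 ratio of the 10 was -0.34 at day 6, -0.55 at day 9, -1.28 at day 12 and -0.75 at day 16. All 10 were chosen by the study as changed on these libraries, which makes the counts a description.

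Upstream, PI3K (TC13873), the lipid kinase that recruits AKT, had 243 reads at day 3, 167 at day 6, 160 at day 9, 91 at day 12 and 255 at day 16. It fell on day 12 (log2 ratio to day 3 -1.08, -1.44 to -0.73) and rose again from day 12 to day 16 (1.05, 0.70 to 1.41). On day 16 it stood at -0.03 against day 3 (-0.29 to 0.23), where AKT stood at -1.26. The difference between PI3K and AKT was not tested, and no call of PI3K held under TMM (-0.48 for day 12 against day 3, and 0.92 for day 16 against day 12).

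Raptor (TC13681), which brings substrates to TOR, had 197 reads at day 3, 186 at day 6, 138 at day 9, 71 at day 12 and 190 at day 16. Its log2 ratio to day 3 was 0.08 at day 6 and -0.02 at day 9, then -1.14 at day 12 (-1.55 to -0.74, called). On day 12 it was called lower than on day 9 (-1.11, -1.55 to -0.69), a call that was lost under TMM (-0.91), while that of TSC2 was not, and on day 16 it had a ratio of 0.99 to day 12 (0.59 to 1.40), just short of the minimum.

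The study's list has a further row under TSC2 without a name of its own, NP9546367, with 225 reads at day 3, 180 at day 6, 100 at day 9, 87 at day 12 and 141 at day 16. It was lowest on day 12 too (log2 ratio to day 3 -1.03, -1.41 to -0.67, called). From day 9 to day 12 its ratio was -0.36 (-0.79 to 0.07), where TSC2 had -1.24, and from day 12 to day 16 it was 0.26 (-0.13 to 0.67), where TSC2 had 1.17. The log2 difference between TSC2 and NP9546367 was -0.89 (-1.54 to -0.24) for the first step and 0.91 (0.29 to 1.52) for the second. These steps were singled out after their values were seen and were given no test.

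RSK (TC13636), a ribosomal S6 kinase of another family that lies in the ERK pathway and acts on TSC2, had 108, 73, 38, 30 and 68 reads by increasing age and fell on days 9 (-1.02, -1.59 to -0.47) and 12 (-1.51, -2.15 to -0.92). On the output side, HIF1 (TC13160), the hypoxia-inducible transcription factor, had 545, 398, 290, 208 and 350 reads and fell on day 12 (-1.05, -1.29 to -0.82). The ribosomal protein S6 (TC12663), the substrate of S6K, took another course.

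S6 had 1571 RPKM at day 3, 1633 at day 6, 1634 at day 9, 1298 at day 12 and 636 at day 16. It was the only one of the 10 whose lowest library was day 16 and not day 12. Its log2 ratio to day 3 was -0.28 on day 12 (-0.37 to -0.18, not called) and -1.30 on day 16 (-1.41 to -1.20, called). Under TMM, S6 was at 0.33 at day 12 and -0.84 at day 16, so its sign at day 12 depends on the scaling. Within libraries, the change of S6 from day 3 to day 12 lay above that of all 4 members, and from day 12 to day 16 below it. Against S6, the log2 difference for S6K was -1.27 (-2.09 to -0.51) on day 12 against day 3 and 1.48 (0.62 to 2.37) on day 16 against day 12. For AKT it was -1.86 (-2.20 to -1.54) and 1.91 (1.55 to 2.28), for TOR -1.18 (-1.68 to -0.70) and 2.00 (1.49 to 2.52), and for TSC2 -1.38 (-1.85 to -0.94) and 2.20 (1.73 to 2.68). These differences were computed after the values were seen, with intervals and no test.

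**Figure D4:**
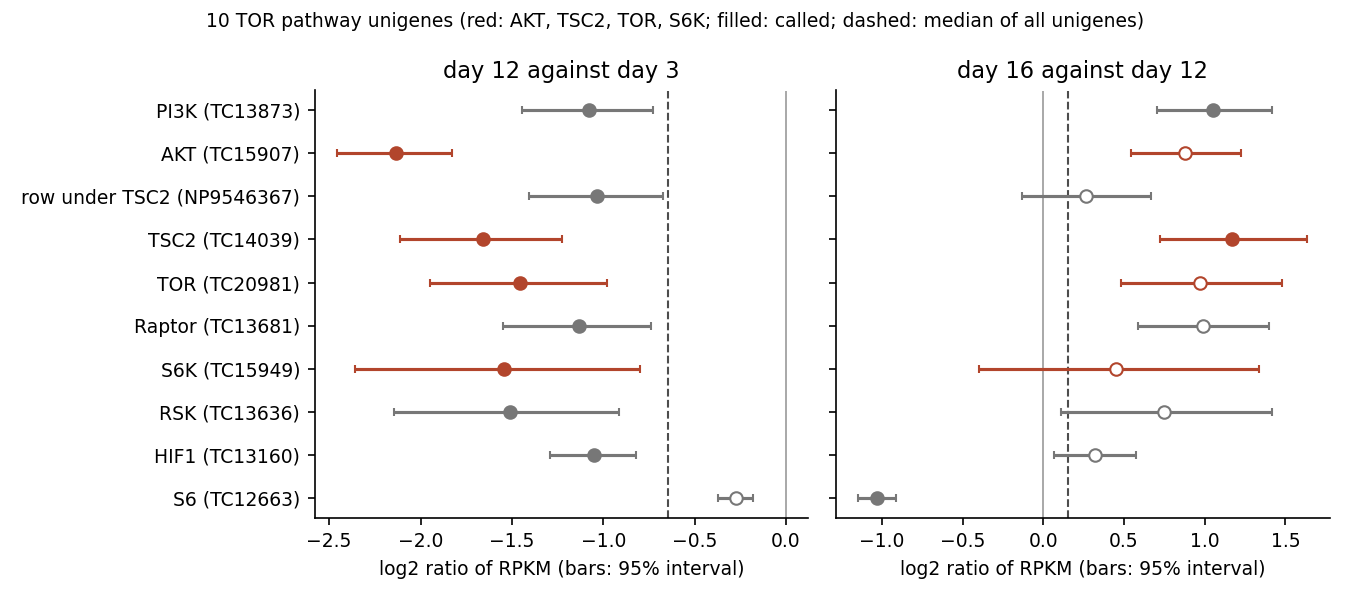
Log2 ratio of RPKM on day 12 against day 3 (left) and on day 16 against day 12 (right) for the 10 unigenes of the study's TOR list, with 95% intervals as bars. AKT, TSC2, TOR and S6K are red, called unigenes are filled, and the dashed line is the median of 15538 unigenes. On the left, S6 alone lies above that median, and on the right it alone lies below 0, at -1.03.

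The deposited annotation is limited to unigenes below 10 RPKM on day 3, and none of the 4 members is in it. It held 17 further unigenes named for insulin or TOR signalling, 10 of them with at least 10 reads over the 5 libraries. None of the 17 was called against day 3 in either direction at any later age. This held for the test of Audic and Claverie, for edgeR's exact test and at an FDR of 0.05. On day 12, 12.5% of all unigenes tested were called lower and 1.8% higher. Only 4 of the 17 had at least 50 reads, so the lack of calls does not show a lack of change. Of those with at least 50 reads, the insulin receptors NP9549225 and NP9551825 had 11, 17, 9, 5 and 17 reads and 14, 17, 6, 4 and 19 reads by increasing age, both lowest on day 12. Their log2 ratios on day 12 were -0.80 (-2.68 to 0.84) and -1.47 (-3.53 to 0.20) against day 3, intervals that included both 0 and the ratios of all 4 members. Against day 6, the day 12 ratios were -1.59 (-3.38 to -0.09, FDR 0.0968) for NP9549225 and -1.91 (-3.94 to -0.30, FDR 0.0485) for NP9551825, and neither was called at an FDR of 0.001. The ribosomal protein S6 kinase-like 1 unigene TC18039 had 22, 21, 16, 21 and 22 reads, with a ratio of 0.27 on day 12 (-0.66 to 1.20). Folliculin-interacting protein 2 (TC22619), a partner of folliculin in amino acid signalling to TOR, had 26, 30, 19, 18 and 25 reads and a ratio of -0.19 on day 12 (-1.15 to 0.73).

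Unigenes named as markers of other cell types had reads at every age. They come from the same annotation, limited to unigenes below 10 RPKM on day 3, so a rise from day 3 is favoured by that choice. All the listed unigenes also had at least 1 read on day 3, which favours an absence of reads at a later age. They were found by words in the annotation, and some are other proteins, such as Golgin subfamily A member 4 (NP9548670) in the muscle list. The neuron list held 39 unigenes, named for synapsin, neurexin, neuroligin and transmitter receptors. They summed to 162 RPKM at day 3, 140 at day 6, 122 at day 9, 94.0 at day 12 and 129 at day 16. The 4 members were lowest at day 12 too, and so was the median unigene, at a log2 ratio to day 3 of -0.65. Of these 39, 17 were lowest on day 12 and 12 had no read there. Choline acetyltransferase (BI510088, 1 read on day 3) and neurexin 1 (NP9550963, 2 reads on day 3) were among these 12 unigenes. Of all 20522 unigenes with a read in any library, 17105 had a read on day 12. Of the 39, 3 were called lower and 1 higher on day 12 than on day 3, against 12.5% and 1.8% of all unigenes tested. Under TMM, 0 were called lower and 3 higher, against 4.28% and 3.64% of all unigenes. Synapsin (TC18883) had 8, 3, 3, 2 and 2 reads by increasing age. Other members of the list had more reads at later ages, such as a kainate-type glutamate receptor (NP9553810) with 8, 26, 28, 39 and 83, the glutamate receptor-interacting protein TC22294 with 25, 37, 31, 46 and 75, and a nicotinic receptor subunit (TC12410) with 7, 20, 20, 24 and 18. The 29 unigenes of the muscle list summed to 113, 331, 437, 615 and 695 RPKM by increasing age, with 4 at 0 on day 12. On that day 10 of them were called higher than on day 3 (1.8% of all unigenes tested) and 13 under TMM (3.64%). The 9 unigenes of the fat body list, a putative vitellogenin receptor (NP9552791) among them, summed to 22.2, 18.2, 27.2, 12.7 and 29.3 RPKM. Of these, 3 were at 0 on day 12. The part of these cells in the values of AKT, TOR, TSC2 and S6K was not tested. In pooled glands, fewer cells of a type and less RNA per cell cannot be told apart.

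Among 494 named unigenes with at least 100 reads, those with the age profile most like each member were ranked by the root mean square difference of log2 RPKM over the 5 ages, each centred on its mean. Nearest to TOR was a fat-like cadherin (NP9550335, 0.0523), with 137, 72, 58, 37 and 97 reads by increasing age, followed by inactive ubiquitin carboxyl-terminal hydrolase 54 (NP9551226, 0.0779) and activated CDC42 kinase 1 (NP9549579, 0.0796). For S6K these were chondroitin sulfate proteoglycan 4 (NP9553824, 0.0819), dedicator of cytokinesis protein 7 (NP9553190, 0.0838) and the chromatin remodelling subunit NURF301 (NP9551463, 0.130). TSC2 was nearest to an axonemal dynein heavy chain (TC15851, 0.110), the nuclear pore protein Nup214 (TC19688, 0.114) and a Kuzbanian-like protein (TC13850, 0.141). AKT had the most distant neighbours, WD repeat-containing protein 35 (NP9553558, 0.160), dachsous (NP9550987, 0.165) and a transient receptor potential-gamma channel (NP9551854, 0.176). Some neighbours had few reads, such as NP9553558 with 8 and NP9551854 with 5 on day 12. The distances and their order hold counting error that was not measured. Nearly all names come from the annotation of low unigenes, so the nearest unigenes at higher levels were not compared. All profiles were read from the same 5 libraries.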

How the data were processed

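RNA of HGs pooled from 30 bees was sequenced in 1 library per age. The authors mapped clean reads with SOAP2 to the DFCI Honey Bee Gene Index with up to 2 mismatches (no SOAP2 version is given in the sources used here). For each unigene they deposited the count of uniquely matched reads, the RPKM computed from it, and the coverage, the fraction of the unigene's length under unique reads. The counts served the tests and intervals, the RPKM the levels. Unique counting leaves out reads shared with a near-identical unigene. The identifiers of the 4 members matched no gene of the reference table, so no genome position or sequence is given.

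Pairs of libraries were compared with the test of Audic and Claverie (two-sided, scipy 1.17.1), adjusted by Benjamini and Hochberg over all unigenes with a read in either, with calls where the FDR did not exceed 0.001 and the log2 ratio was 1 or more in size. The thresholds are the study's. Intervals of ratios (95%, Clopper-Pearson, from 2 counts) leave out all but counting error, and PCR copies of a molecule are not independent. Medians and profile distances used log2(RPKM + 0.1), which understates changes of low unigenes. Alternatives were TMM (edgeR 4.0.16), DESeq2 1.42.0 size factors, all mapped reads, at least 10 reads, edgeR's exact test with an assumed coefficient of variation of 0.2, an FDR of 0.05 with no minimum ratio, and Barnard's test. The text names the 4 members, the rest of the study's TOR list, annotated pathway unigenes with at least 50 reads and the 3 nearest profiles per member. Members, lists and rules were chosen with earlier results of these data known.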

Additional observations from a re-analysis of the deposited data

How the results depend on the processing

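AKT and TSC2 on day 12 against day 3, AKT on day 12 against day 6, TSC2 on day 12 against day 9 and TSC2 on day 16 against day 12 were called under TMM and DESeq2's size factors alike. With either of these scalings the members called lower than on day 3 numbered 0 on day 9, 2 on day 12 and 0 on day 16, against 1, 4 and 2 under the total of unique reads. The size factors called 1.81%, 4.12% and 3.52% of all unigenes lower on these days. In the study's TOR list they numbered 0, 2 and 0, against 2, 9 and 3. Both scalings called 1 member lower on day 12 than on day 6 and 1 lower than on day 9, against 2 each, where the size factors called 1.79% and 0.702% of all unigenes. Scaling by all mapped reads called 4 members and 7 of the list lower on day 9 than on day 3 (24.2% of all unigenes), 1 member lower on day 9 than on day 6 (5.99%), 1 lower on day 12 than on day 9 (0.729%) and 3 higher on day 16 than on day 12 (7.82%). With the assumed coefficient of variation of 0.2, 1 call was left among members and list on day 12 against day 3 (1.82% of all unigenes), 0 on days 9 (0.131%) and 16 (0.604%), and 0 members between later ages. An FDR of 0.05 with no minimum ratio called 3, 3, 4 and 4 members lower than on day 3 by increasing age, and 4, 6, 10 and 8 of the list, against 6.77%, 16.8%, 25.3% and 22.9% of all unigenes. Between later ages it called 1 lower on day 9 (6.27%) and on day 16 (14.4%) than on day 6, 4 lower on day 12 than on day 6 (18%), and 3 higher on day 16 than on day 12 (7.52%). The minimum of 10 reads and Barnard's test changed none of these counts.

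Values that turned their sign were not called under either setting. With DESeq2's size factors, TSC2 on day 9 against day 3 was 0.022, TOR on day 16 against day 3 was 0.0026, TOR on day 9 against day 6 was 0.18 and TSC2 on day 16 against day 6 was 0.32. With TMM the last 2 were 0.15 and 0.30. With all mapped reads, TSC2 was -0.37 on day 9 and 0.19 on day 16 against day 6, and day 16 against day 9 was 0.44 for AKT, 0.57 for TSC2 and 0.54 for S6K. The cause was not tested. No paired analysis was possible because there is 1 library per age, and for the same reason no replicate could be left out. Depth limits S6K most, with 19 reads on day 12.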
